A study of Mus musculus with 5 samples.

Results

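The 8 genes described here encode subunits of inward rectifier (Kir) potassium channels and of ATP-sensitive potassium (KATP) channels of the heart: Kcnj2, Kcnj3, Kcnj5, Kcnj8, Kcnj11, Kcnj12, Abcc8 and Abcc9. They were taken by symbol from a table of 40624 genes measured in atria of newborn mice, and each symbol matched 1 row. All 8 were abundant enough to be tested, as 8 of 17835 genes that passed a filter on low counts.

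Inward rectifiers pass potassium more readily into the cell than out of it, and they hold the resting membrane potential of muscle cells near the potassium equilibrium. Kir2 channels carry the classical background current IK1, which is larger in ventricle than in atrium. Kir3 channels of the atrium and the sinus node open when acetylcholine or adenosine releases G protein beta-gamma subunits, and they carry the current IKACh that slows the heart. KATP channels join a Kir6 pore to a sulfonylurea receptor (SUR), an ABC family protein that senses nucleotides, and they open when the energy state of the cell falls.

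The study asked what the atrium expresses when it lacks the homeobox regulator Nkx2-5. RNA came from atrial tissue of C57BL/6 mice at postnatal day 1. The 2 mutant libraries (replicates 5 and 7) were from SLN-Cre mice with the genotype Nkx2-5-flox/flox, and the 3 control libraries (replicates 2, 4 and 6) were from SLN-Cre mice with the genotype Nkx2-5-flox/+. Both groups thus carried the Cre recombinase, which is driven by the sarcolipin gene of atrial myocytes. Controls were heterozygous for the floxed allele and not untouched wild type, and cells that never express Cre keep Nkx2-5 in either group. The labels do not say whether a library is 1 animal, so p-values measure the spread between libraries, which may be partly technical.

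The libraries held 78841494 and 69648013 gene counts in mutants 5 and 7 and 58501214 to 60899334 in controls. Levels are given as CPM, which are counts relative to library size after scaling by TMM. Nkx2-5 stood at 5.79 and 5.21 CPM in mutants 5 and 7, against 76.8, 72.1 and 71.3 CPM in controls 2, 4 and 6. The atrial identity of the tissue was visible in Myl7, the atrial myosin light chain gene, at 9949 to 10817 CPM in mutants and 10285 to 11075 CPM in controls. The ventricular light chain gene Myl2 stood at 8.26 to 18.5 CPM in mutants and 16.3 to 95.9 CPM in controls, highest in control 6.

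Abcc9, which encodes the receptor SUR2 of the KATP channels of heart and vascular muscle, rose in mutant atria. Kcnj11, which encodes Kir6.2, the pore of the cardiac KATP channel, fell. The other 6 genes did not pass. In bulk tissue a change in the number of cells of a type and a change of RNA per cell cannot be told apart. Of the members, 1 of 8 rose and 1 of 8 fell at an adjusted p under 0.05, whereas 3.02% of all tested genes rose and 3.57% fell, 6.58% in either direction. Mutant values lay wholly above control values for Abcc9 and Kcnj5 and wholly below them for Kcnj2, Kcnj11, Kcnj12 and Abcc8. That makes 6 of 8 genes without overlap, against 37.9% of all tested genes (18.6% with mutants above and 19.2% with mutants below). The median log2 fold change was -0.06 over the 8 genes and 0.01 over all tested genes.

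**Figure D1:**
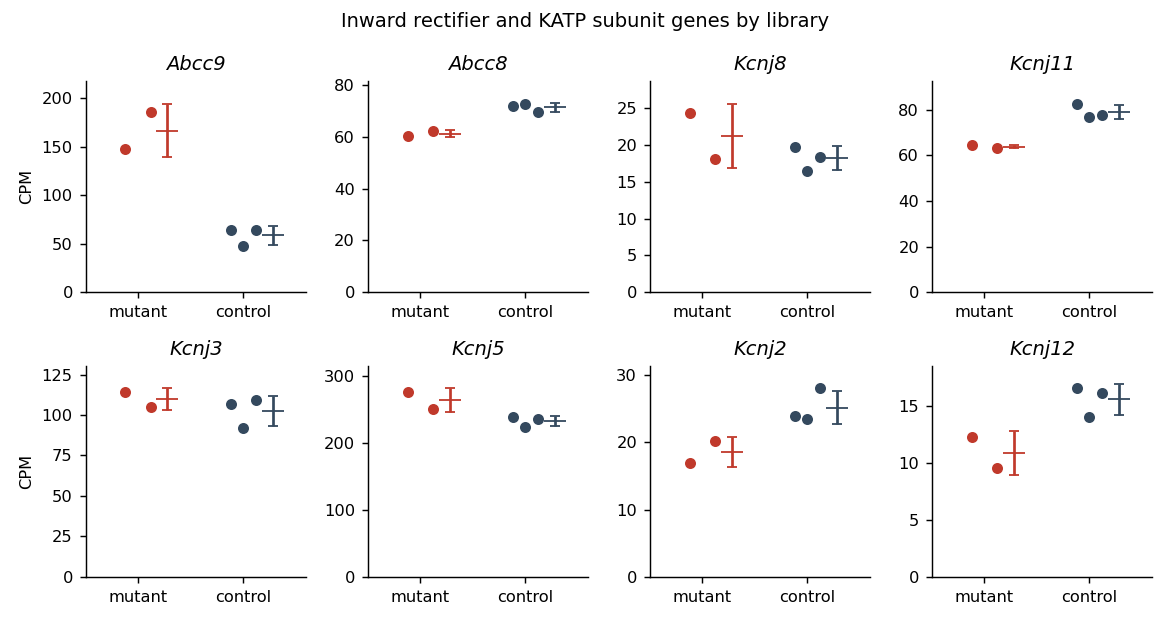
CPM of each of the 8 genes in every library, mutant left and control right, with each panel on its own axis from 0; points are libraries and the bar beside them is the mean with its SD (n = 2 mutant, n = 3 control). The groups stand apart in 6 panels and overlap for Kcnj3 and Kcnj8, and the Abcc9 panel has the largest gap, with 147 and 186 CPM in mutants against 47.4 to 64.4 CPM in controls.

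Of the regulatory subunit genes of the KATP channel, Abcc9 rose and Abcc8 did not pass. Abcc9 (ENSMUSG00000030249; coding span chr6:142538886-142646340, mm9, minus strand) had 147 and 186 CPM in mutants 5 and 7, against 63.8, 47.4 and 64.4 CPM in controls 2, 4 and 6. Every mutant library was higher than every control library, and mutant 7 was the higher of the pair. Its log2 fold change was 1.51 ± 0.17 (SE), a 2.85-fold rise with a 95% interval of 2.14 to 3.79, and the edgeR adjusted p was 0.00759. The size of this change was above that of 98.3% of tested genes. Without mutant 7 the log2 fold change was 1.32 and the adjusted p 0.0588, so the call was lost there, and it was kept when any other library was left out. Where a mutant is left out, here and below, the spread comes from the 3 controls and the lone mutant is assumed to vary like them. Abcc9 yields the splice forms SUR2A, typical of heart muscle, and SUR2B, typical of vascular muscle, and counts per gene cannot separate them.

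Abcc9 lies beside Kcnj8, the gene of the pore subunit Kir6.1, on the same strand of chromosome 6, with 19987 bases between their coding spans. Kcnj8 did not pass, as given below. The 250 bases before the start of each gene are shown because Abcc9 was called and Kcnj8 was not (RefSeq, GRCm38.p6, each read 5′ to 3′ on the minus strand, chr6:142702275-142702524 and chr6:142571615-142571864). A link between these bases and the levels was not tested. Capitals mark a match to AAGTG, the core of the element that Nkx2-5 binds, on either strand.
Abcc9: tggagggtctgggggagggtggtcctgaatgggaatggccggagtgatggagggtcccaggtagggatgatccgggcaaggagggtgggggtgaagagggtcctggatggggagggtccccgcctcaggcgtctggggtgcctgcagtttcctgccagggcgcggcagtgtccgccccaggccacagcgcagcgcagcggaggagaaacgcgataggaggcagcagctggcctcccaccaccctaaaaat
Kcnj8: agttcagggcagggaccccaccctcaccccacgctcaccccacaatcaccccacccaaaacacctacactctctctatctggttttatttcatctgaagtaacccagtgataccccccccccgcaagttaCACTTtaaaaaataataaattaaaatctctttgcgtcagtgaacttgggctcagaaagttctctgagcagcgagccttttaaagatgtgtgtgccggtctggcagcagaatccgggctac
The Abcc9 window holds no AAGTG on either strand. The Kcnj8 window holds 1, which reads CACTT on the gene's own strand, begins 120 bases before the start and also matches the longer form TNAAGTG. Of the 6 members with a listed promoter (Kcnj2, Kcnj3, Kcnj5, Kcnj8, Kcnj12 and Abcc9), Kcnj5 and Kcnj8 hold AAGTG in this window, as do 40.7% of 32851 promoters. TNAAGTG stands in Kcnj8 alone among the 6 and in 10.1% of all promoters. A match in these letters is a description of the sequence and not evidence of a bound site.

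Abcc8 (ENSMUSG00000040136; coding span chr7:53359921-53435319, mm9) encodes SUR1, which is best known from pancreatic beta cells and neurons and is also found in mouse atrium. Its level was 60.1 and 62.0 CPM in mutants 5 and 7, against 71.9, 72.8 and 69.5 CPM in controls 2, 4 and 6. The groups did not overlap, and the values within each were close, with a coefficient of variation of 2.21% in mutants and 2.39% in controls. The log2 fold change of -0.22 ± 0.06 (SE; 95% interval -0.37 to -0.08) did not pass, with an edgeR adjusted p of 0.0710.

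Kcnj11 (ENSMUSG00000070561; coding span chr7:53354095-53355267, mm9) is the neighbour of Abcc8, 4654 bases away. It had 64.3 and 63.3 CPM in mutants 5 and 7, against 82.6, 76.7 and 77.5 CPM in controls 2, 4 and 6. Both mutant libraries were lower than all 3 controls. Kcnj11 fell by 19.1%, with a log2 fold change of -0.31 ± 0.06 (SE; 95% interval -0.45 to -0.16) and an edgeR adjusted p of 0.0266. The direction held whichever library was left out (log2 fold change -0.33 to -0.27). The call did not: the adjusted p was 0.135 without control 2, 0.0807 without control 4, 0.0663 without control 6 and 0.0626 without mutant 7, and 0.0380 without mutant 5.

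Kcnj8 (ENSMUSG00000030247; coding span chr6:142514125-142518899, mm9), the gene of Kir6.1, is typical of vascular smooth muscle and pericytes. Its level was 24.4 and 18.2 CPM in mutants 5 and 7, against 19.8, 16.5 and 18.4 CPM in controls 2, 4 and 6. Mutant 5 was the highest of the 5 libraries, and mutant 7 lay within the control range. The log2 fold change of 0.22 ± 0.14 (SE; 95% interval -0.09 to 0.54) did not pass (edgeR adjusted p = 0.414). It was -0.01 without mutant 5 and 0.41 without mutant 7. The interval leaves room for a change of up to 1.45-fold.

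**Figure D2:**
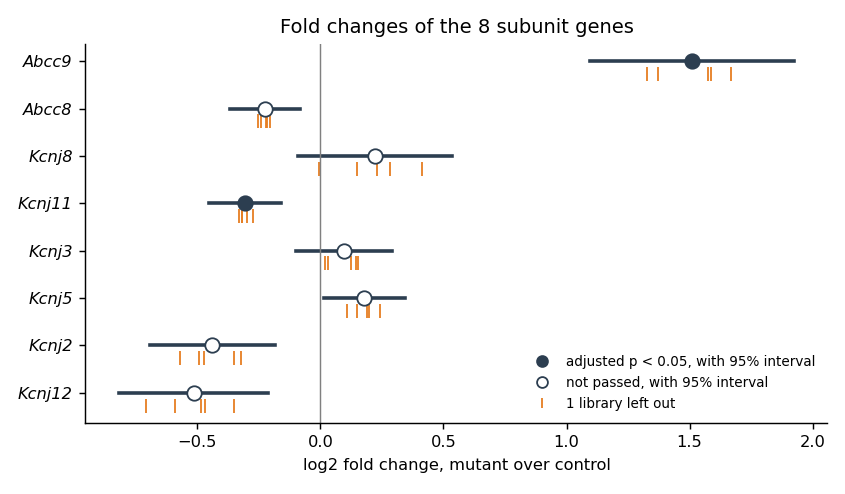
Log2 fold change, mutant over control, of the 8 genes with its 95% interval; filled points passed an adjusted p of 0.05 and ticks under each line are the values with 1 library left out. Abcc9 at 1.51 stands alone on the right, Kcnj11 is the only filled point below 0, and of the ticks only 1 of Kcnj8 changes side.

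Counts divided by gene length allow the subunits of a channel to be set beside each other, here as CPM per kilobase of the length listed in the table. In mutants 5 and 7 Abcc9 stood at 18.6 and 23.6 and Abcc8 at 11.7 and 12.03 CPM per kilobase. In controls 2, 4 and 6 Abcc9 stood at 8.08, 6.00 and 8.15 and Abcc8 at 13.9, 14.1 and 13.5 CPM per kilobase. The more abundant SUR transcript was therefore Abcc9 in both mutant libraries and Abcc8 in all 3 controls. With the exonic lengths of GENCODE vM21 the order was the same. Means were 19.9 for Abcc9 and 7.55 for Abcc8 in mutants and 6.99 for Abcc9 and 8.82 for Abcc8 in controls. The Abcc9 share of the SUR total by these lengths was 70.3% and 74.4% in mutants and 46.2%, 38.6% and 47.2% in controls. By coding length it was 71.5% and 75.5% in mutants and 47.7%, 40.1% and 48.8% in controls. The lead of Abcc8 in controls 2 and 6 was narrow by either length. By listed length, Abcc9 made up 61.5% and 66.2% of the SUR total in mutants and 36.7%, 29.8% and 37.7% in controls, a difference of 29.1 percentage points between the means. The exact two-sided permutation test over the 5 libraries gave p = 0.1, the smallest value that 10 splits allow (0.2 adjusted over 4 such shares), so this design could not reach 0.05.

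Among the pore subunits, Kcnj11 made up 65.3% and 71.3% of the Kir6 total in mutants and 74.8%, 76.8% and 75.0% in controls (exact permutation p = 0.1, adjusted 0.2). The sum of the SUR transcripts was 30.3 and 35.6 CPM per kilobase in mutants and 20.1 to 22.0 in controls. The sum of the Kir6 transcripts was 32.1 and 28.9 CPM per kilobase in mutants and 32.5 to 35.9 in controls. In a KATP channel the 2 kinds of subunit protein are present in equal number, which transcript ratios in bulk tissue do not measure. The ratio of SUR to Kir6 transcripts was 0.945 and 1.23 in mutants and 0.613, 0.619 and 0.643 in controls, with no overlap. Within the neighbouring pairs, Abcc9 over Kcnj8 was 1.67 and 2.84 in mutants and 0.796 to 0.969 in controls, while Abcc8 over Kcnj11 was 0.557 and 0.584 in mutants and 0.519 to 0.566 in controls, where the groups overlapped. These ratios rest on the listed lengths and would take other values with other lengths. They were chosen with the member values known and carry no test.

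**Figure D3:**
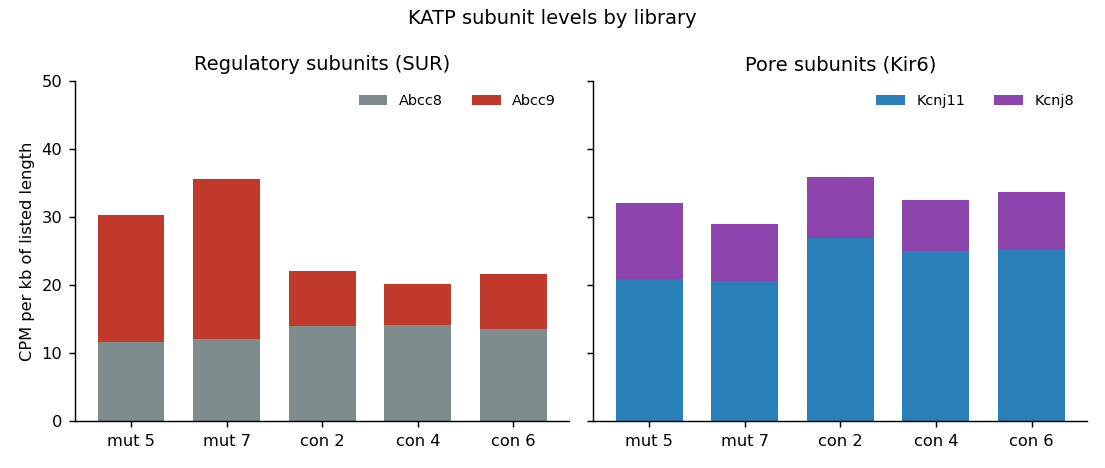
KATP subunit transcripts by library in CPM per kilobase of listed length, stacked from 0, with mutants 5 and 7 left and controls 2, 4 and 6 right; the left panel adds Abcc8 and Abcc9 and the right panel Kcnj11 and Kcnj8. The Abcc9 part is larger than the Abcc8 part in both mutants only, and the right panel sums lie between 28.9 and 35.9.

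The Kir3 genes of the acetylcholine-gated channel showed small differences. Kcnj5 (ENSMUSG00000032034; coding span chr9:32125165-32130602, mm9) encodes Kir3.4, which assembles with Kir3.1 in atrial myocytes. It had 277 and 251 CPM in mutants 5 and 7, against 239, 225 and 236 CPM in controls 2, 4 and 6, and the groups did not overlap. Its log2 fold change of 0.18 ± 0.07 (SE; 95% interval 0.02 to 0.34) did not pass (edgeR adjusted p = 0.197). Kcnj3 (ENSMUSG00000026824; coding span chr2:55289612-55447808, mm9), the gene of Kir3.1, had 114 and 105 CPM in mutants 5 and 7, against 107, 91.8 and 109 CPM in controls 2, 4 and 6. The groups overlapped, and the log2 fold change of 0.10 ± 0.09 (SE; 95% interval -0.10 to 0.29) did not pass (edgeR adjusted p = 0.593). Kcnj3 made up 14.8% and 14.9% of the pair per kilobase in mutants and 14.6% to 16.2% in controls (exact permutation p = 0.4). By GENCODE exonic length, which is shorter for Kcnj3, its share was 27.1% and 27.3% in mutants and 26.9% to 29.3% in controls.

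The Kir2 genes of IK1 both had lower values in mutants. Kcnj2 (ENSMUSG00000041695; coding span chr11:110933098-110934384, mm9), which encodes Kir2.1, stood at 17.0 and 20.1 CPM in mutants 5 and 7, against 23.9, 23.5 and 28.01 CPM in controls 2, 4 and 6. Kcnj12 (ENSMUSG00000042529; coding span chr11:60880203-60883969, mm9), which encodes Kir2.2, stood at 12.3 and 9.56 CPM in mutants 5 and 7, against 16.6, 14.1 and 16.2 CPM in controls 2, 4 and 6. For both genes all mutant values were below all control values. Kcnj2 was highest in control 6, where the ventricular myosin light chain genes Myl2 and Myl3 were highest too. Its log2 fold change was -0.35 without control 6, and its level differed little between controls 2 and 4. Kcnj12 was instead highest in control 2, at 16.6 CPM against 16.2 CPM in control 6. Myl3 measured 22.3 and 15.4 CPM in mutants 5 and 7, against 124, 67.2 and 145 CPM in controls 2, 4 and 6 (edgeR adjusted p = 0.0764). Of the other listed ventricular markers, Irx4 was scarce and lower in mutants, whereas Hey2 and Lbh were higher. Hey2 measured 36.4 and 34.5 CPM in mutants 5 and 7, against 5.48 to 6.56 CPM in controls. Lbh measured 154 and 148 CPM in mutants, against 90.3 to 107 CPM in controls. The part of ventricular tissue in the Kir2 values was not tested. The log2 fold changes were -0.44 ± 0.11 (SE; 95% interval -0.69 to -0.19) for Kcnj2 and -0.51 ± 0.13 (SE; 95% interval -0.82 to -0.21) for Kcnj12. Neither passed, with edgeR adjusted p of 0.0533 and 0.0566. Kcnj2 passed without mutant 7 (edgeR adjusted p = 0.0337) and Kcnj12 without mutant 5 (edgeR adjusted p = 0.0169). Kcnj12 was the gene with the fewest reads, at least 653 per library, where counting error alone is 3.91%. Kcnj2 made up 54.6% and 64.7% of the Kir2 pair per kilobase in mutants and 55.7% to 60.1% in controls (exact permutation p = 1). This majority rests on the listed length of Kcnj12: by GENCODE exonic length Kcnj2 made up 41.1% and 51.5% in mutants and 42.2% to 46.6% in controls.

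The calls of the lower genes lay near the threshold and depended on the method. With DESeq2, Kcnj2, Kcnj11, Kcnj12 and Abcc8 all passed (adjusted p 0.00124 to 0.0188), 4 of 8 against 6.22% of all genes it tested. Scaling by library totals alone also gave 4 lower members (adjusted p at most 0.0439), against 4.48% of all genes. Without a filter on low counts 3 passed, Kcnj2, Kcnj11 and Kcnj12, against 3.13% of all genes. Limma-voom called the same single lower gene as edgeR, Kcnj11, with 3.36% of all genes called lower. In the authors' deposited table the adjusted p was 3.49e-07 for Abcc9, 0.0486 for Kcnj12, 0.0779 for Kcnj2, 0.0997 for Kcnj11 and 0.400 for Abcc8, where 4.54% of 25941 genes with a value were under 0.05. Kcnj5, Kcnj3 and Kcnj8 did not pass in any setting tried.

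In order of level per kilobase, controls ran Kcnj5 (51.9 ± 1.70), Kcnj11 (25.7 ± 1.04), Abcc8 (13.8 ± 0.33), Kcnj3 (9.55 ± 0.88), Kcnj8 (8.34 ± 0.76), Abcc9 (7.41 ± 1.22), Kcnj2 (4.62 ± 0.46) and Kcnj12 (3.29 ± 0.29; CPM per kilobase, SD, n = 3). Neighbours in this order had overlapping ranges only for Kcnj3 with Kcnj8 and Kcnj8 with Abcc9. By the listed lengths Abcc9 moved to the second place in mutants at 21.1 ± 3.50, and the order of the other 7 was the same. There its range overlapped that of Kcnj11 at 20.8 ± 0.23 CPM per kilobase (SD, n = 2). The Kir3.4 gene was thus the most abundant in both groups. Places within the order rest on the listed lengths, which for Kcnj3 (10745 bases) and Kcnj12 (4750 bases) exceed the 5215 and 2750 exonic bases of GENCODE vM21. With the latter lengths Kcnj3 would average 21.0 in mutants and 19.7 in controls, and Kcnj12 3.98 in mutants and 5.68 in controls, in CPM per kilobase. Abcc8, listed at 5159 bases against 8090, would average 7.55 in mutants and 8.82 in controls. By GENCODE lengths Abcc9 in mutants, at 19.9, would lie between Kcnj3 and Kcnj11 (17.4). Kcnj3 would be above Kcnj11 in mutants but below it in controls (21.5). Abcc8 would be below Kcnj8 in mutants (8.35) but above it in controls (7.16).

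Libraries of 1 group varied to different degrees among the 8 genes. The coefficient of variation between mutants was 1.10% for Kcnj11 and 20.6% for Kcnj8, and between controls it was 2.39% for Abcc8 and 16.4% for Abcc9. Among controls, control 4 was the lowest for 7 of the 8 genes and the highest for Abcc8. By root mean square difference of centred log2 CPM over the 5 libraries, among 13084 genes with a symbol and a mean log2 CPM of at least 1, the genes nearest to Abcc9 were Kcnf1 (0.159), Rasl10a (0.188) and Sh3rf3 (0.194). Kcnf1, which encodes a silent subunit of voltage-gated potassium channels, had 4.98 and 7.35 CPM in mutants, against 2.15 to 2.55 CPM in controls. B3gnt9-ps (0.0144) and Arhgap44 (0.0151) were among the 3 genes nearest to Kcnj11.

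Other genes of the Kir family were scarce in these atria. Of 9 listed, 5 were tested and none passed edgeR's test, with 0 at an unadjusted p under 0.05 and 0 calls by DESeq2 or limma-voom. Kcnj15, which encodes Kir4.2, was the most abundant at 2.38 and 3.69 CPM in mutants and 2.08 to 2.44 CPM in controls. Its log2 fold change was 0.46 ± 0.22 (SE; edgeR adjusted p = 0.290). Kcnj4, Kcnj6, Kcnj10 and Kcnj14 stayed below 1 CPM in every library. Kcnj1, Kcnj9, Kcnj13 and Kcnj16 had at most 5 counts in any library and were not tested.

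Upstream of IKACh, 20 genes of receptors, G proteins and their regulators were tested. Of these 3 rose, 1 fell and 16 did not pass, with a median log2 fold change of 0.03. Over all tested genes 3.02% rose and 3.57% fell. Of the 20, 7 had an unadjusted p under 0.05. DESeq2 called 4 higher and 1 lower, and limma-voom 3 higher and 1 lower. Chrm2, the muscarinic receptor gene that opens the channel, measured 80.0 and 91.4 CPM in mutants, against 81.6 to 94.5 CPM in controls and did not pass (edgeR adjusted p = 0.795). Adora1, the gene of the adenosine A1 receptor, rose to 42.5 and 43.3 CPM in mutants, against 28.7 to 32.8 CPM in controls (log2 fold change 0.45 ± 0.08, SE; edgeR adjusted p = 0.0166). Gnao1, a G protein alpha subunit gene, rose by 0.43 ± 0.07 and Gng2, a gamma subunit gene, by 0.37 ± 0.07 on the log2 scale. Rgs2, a regulator of G protein signalling that acts mainly on Gq, fell to 11.97 and 13.4 CPM in mutants, against 18.1 to 21.5 CPM in controls (log2 fold change -0.67 ± 0.11, SE; edgeR adjusted p = 0.00863). The Rgs2 call held when each library was left out. Without control 4 the edgeR adjusted p was 0.0513 for Adora1, 0.0535 for Gnao1 and 0.0949 for Gng2, and without control 6 that of Gng2 was 0.0752, so none of the 3 rises was called without control 4.

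Among 15 tested genes of Kir2 scaffolds and of PIP2 synthesis, 1 rose, 1 fell and 13 did not pass. Their median log2 fold change was 0.00, and over all tested genes 3.02% rose and 3.57% fell. Of the 15, 4 had an unadjusted p under 0.05. DESeq2 called 2 higher and 1 lower, and limma-voom 1 higher and 1 lower. PIP2 is the membrane lipid that all Kir channels need to open. Pi4ka, a phosphatidylinositol 4-kinase gene, rose to 128 and 126 CPM in mutants, against 95.7 to 102 CPM in controls, a call lost without control 4 (edgeR adjusted p = 0.0651). Pip5k1b, a kinase gene of the next step, fell to 39.9 and 32.0 CPM in mutants, against 46.3 to 50.6 CPM in controls. That call was lost without control 2, control 4, control 6 or mutant 7 (edgeR adjusted p 0.0955 to 0.147). Scaffold genes such as Dlg1 (log2 fold change -0.03 ± 0.07) and Cav3 (0.00 ± 0.08, SE) did not pass. None of 11 genes of KATP partners and regulators passed edgeR's test (median -0.02), with 0 at an unadjusted p under 0.05 and 0 calls by DESeq2 or limma-voom. They include Ank2, the gene of ankyrin-B, which anchors Kir6.2, at 86.7 and 90.3 CPM in mutants and 85.1 to 93.8 CPM in controls.

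**Figure D4:**
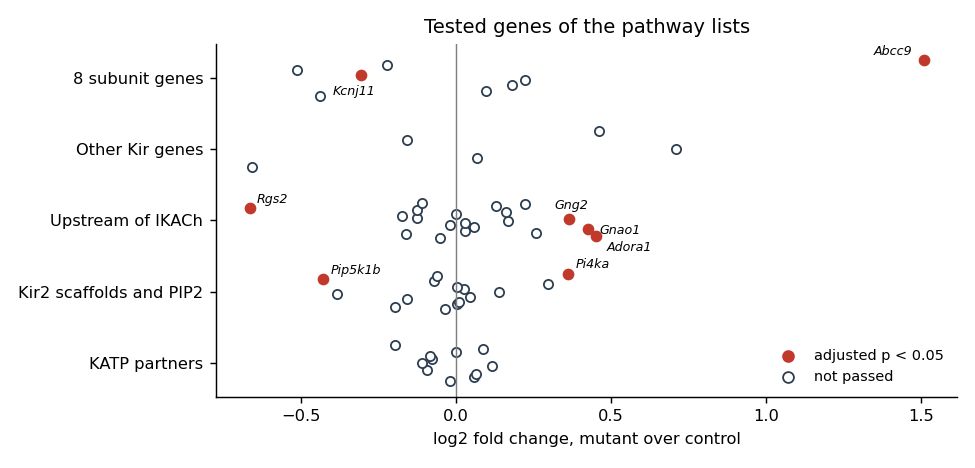
Log2 fold change, mutant over control, of each tested gene in 5 groups: the 8 subunit genes, other Kir genes, genes upstream of IKACh, Kir2 scaffolds with PIP2 synthesis, and KATP partners; filled points passed an adjusted p of 0.05. Abcc9 at 1.51 lies farthest from 0, and the 11 KATP partners are all unfilled.

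Abcc9 and Kcnj8 are also markers of mural cells, the pericytes and smooth muscle of vessels. Of 12 mural markers 11 were tested, and 2 were called higher, Acta2 and Mcam (3 called by DESeq2 and 1 by limma-voom). The median log2 fold change was 0.51 over the list, and 3.02% of all tested genes were called higher. Acta2, a smooth muscle actin gene that immature heart muscle also expresses, measured 1693 and 1244 CPM in mutants, against 366 to 435 CPM in controls. Mcam measured 307 and 403 CPM in mutants, against 256 to 259 CPM in controls, a call lost without any 1 control or without mutant 7 (edgeR adjusted p 0.0685 to 0.143). The summed level of the list was 2576 and 2347 CPM in mutants 5 and 7 and 1031 to 1218 CPM in controls. Myh11, a smooth muscle myosin gene, did not pass (edgeR adjusted p = 0.188), with 29.7 and 27.7 CPM in mutants and 2.03 to 9.14 CPM in controls. Without Acta2 the sum was 883 and 1103 CPM in mutants and 665 to 785 CPM in controls.

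Pericyte genes on the list differed between the mutants. Pdgfrb measured 56.9 and 97.4 CPM in mutants 5 and 7, against 42.6 to 56.7 CPM in controls, and Rgs5 at 80.5 and 124 CPM in mutants and 48.7 to 69.7 CPM in controls. Notch3 measured 38.7 and 77.8 CPM in mutants, against 30.8 to 42.8 CPM in controls. All 3 were highest in mutant 7, as Abcc9 was, whereas Kcnj8 was lower in mutant 7 than in mutant 5. Cspg4, Tagln and Mcam were also highest in mutant 7. Acta2, Myh11 and Cnn1 were highest in mutant 5, and Higd1b and Ndufa4l2 in control 2. Every listed endothelial marker but Npr3 was highest in mutant 7 too, such as Kdr at 200 CPM, against 122 CPM in mutant 5. In mutant 5, Rgs5, Acta2, Myh11, Mcam, Cnn1 and, narrowly, Pdgfrb lay above every control and Notch3, Tagln, Higd1b and Ndufa4l2 within the control range, while Cspg4 was below it. None of the list was at 0 in all libraries; Vtn, with at most 10 counts in any, was the untested one. The part of mural cells in the Abcc9 result was not tested beyond these values.

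**Figure D5:**
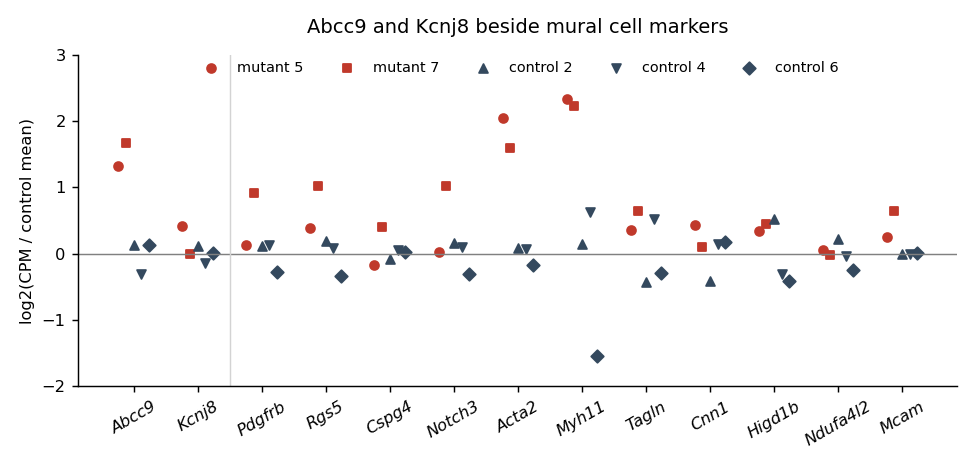
Level of Abcc9, Kcnj8 and the 11 tested mural cell markers in each library as log2 of CPM over the control mean, with mutants 5 and 7 (circle, square) left of controls 2, 4 and 6 (triangles, diamond). Abcc9 is high in both mutants and Kcnj8 in mutant 5 only. Pdgfrb, Rgs5, Notch3, Cspg4, Tagln and Mcam are highest in mutant 7, and Acta2, Myh11 and Cnn1 in mutant 5.

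Markers of other cell types moved with the groups as well, and their part in the results on channel genes was not tested. Over all tested genes 3.02% were called higher and 3.57% lower. Of 5 epicardial markers 4 fell, Upk3b, Msln, Krt19 and Upk1b (summed 647 to 648 CPM in mutants and 942 to 1113 CPM in controls). Of 7 fibroblast markers Dcn and Lum fell and 5 did not pass (summed 5343 to 5561 CPM in mutants and 6563 to 7605 CPM in controls). DESeq2 called 4 of the 7 lower and limma-voom 3. Nodal myocyte markers summed to 685 to 719 CPM in mutants and 273 to 384 CPM in controls, with Vsnl1 and Smoc2 called higher of 10. DESeq2 called 3 of them higher and 1 lower. Endothelial markers summed to 1833 to 2160 CPM in mutants and 1646 to 1824 CPM in controls, with Tie1 called higher of 8. Of the 8, 5 had an unadjusted p under 0.05, and DESeq2 called 2 higher. Atrial myocyte markers had 1 member higher (Bmp10) and 3 lower (Nppa, Pam and Gja5) of 10, and their sum of 21930 to 23188 CPM in mutants against 29576 to 31270 CPM in controls included a drop in Nppa, to 849 and 1194 CPM in mutants against 5281 to 6769 CPM in controls. Ventricular markers had Hey2 and Lbh called higher of 5, and the other 3 had negative log2 fold changes that did not pass (Myl3 -2.57, Myl2 -1.74 and Irx4 -1.49; edgeR adjusted p 0.0764 to 0.529). The list median was -1.49, and DESeq2 called 1 lower. Their sum of 206 to 231 CPM in mutants against 184 to 339 CPM in controls was mostly Lbh in mutants.

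Neuronal markers, relevant to Abcc8, summed to 62.2 to 67.9 CPM in mutants and 54.8 to 80.9 CPM in controls. No neuronal marker of 9 passed edgeR's test, 2 had an unadjusted p under 0.05, DESeq2 called 1 higher, and limma-voom called 0. Erythroid markers had 1 of 6 called higher (1751 to 1781 CPM in mutants and 1113 to 1458 CPM in controls). Of the 6, 5 had an unadjusted p under 0.05, and DESeq2 called 4 higher and limma-voom 1. Leukocyte markers had none of 5 called by edgeR (147 to 148 CPM in mutants and 115 to 137 CPM in controls), with 3 at an unadjusted p under 0.05, 1 higher by DESeq2 and 0 by limma-voom. Of 6 skeletal muscle markers, Myod1 had no count in any library and Pax7 at most 1, and 1 of the 4 tested was lower. Single marker calls depended on 1 library: the endothelial Tie1 was lost without any 1 control or mutant 7 (edgeR adjusted p 0.0780 to 0.172), and the nodal Smoc2 without control 4, mutant 5 or mutant 7 (0.121 to 0.245). The erythroid Hba-a1 was lost without control 2 or control 4 (0.0737 to 0.0814), the skeletal Actn3 without control 2, control 4 or mutant 7 (0.0685 to 0.0844), and the atrial Bmp10 without control 4, control 6 or mutant 7 (0.0713 to 0.10001). Other marker calls did not: the called fibroblast and epicardial markers held in every such fit, as did Acta2, Nppa, Pam, Gja5, Hey2, Lbh and Vsnl1.

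The counting could touch single members. The sources used here do not state whether counting used strand. By GENCODE vM21 Abcc9 shares 158 of its 8373 exonic bases, and Kcnj3 1621 of 5215, with a gene on the opposite strand (5330439B14Rik and Gm26794). Neither of these genes has a row under its reference identifier in the table, so their reads could not be told apart from those of Abcc9 and Kcnj3.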

How the data were processed

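Per the file headers, the deposited table holds read counts for each gene in each library, together with RPKM values pooled per group, the log2 ratio of mutant over control, and the authors' p-value and adjusted p-value per gene. The submitters' processing notes name mm9, DESeq, HTSeq 0.5.4p3 and TopHat2 2.0.4, without roles. The authors' RPKM values used the length listed in the same deposited table. Entries that name no gene were left out: no_feature was 3.97% to 6.03% and ambiguous 2.31% to 3.18% of all counts.

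The gene counts went into edgeR 4.0.16 (R 4.3.3): filterByExpr (minimum count 10, minimum total 15), TMM scaling and a robust quasi-likelihood test, two-sided, on 2 mutant against 3 control libraries. P-values were adjusted by Benjamini-Hochberg over 17835 genes, with a threshold of 0.05. Fold changes use a prior count of 0.125, the SE is the log2 fold change over the root of F, and 95% intervals are per gene and unadjusted. The test was checked on simulated counts. Shares were to be scaled by coding length; the listed length was used in its place after the data were seen, because the counts cover whole exons. Promoters are RefSeq's. Motifs were chosen after the fits were seen. Members and lists were chosen with earlier results of these data known. Named genes are the 8 members, Nkx2-5, up to 4 called genes per pathway list and the 3 genes most alike in pattern to each called member, of which 1 is not reported here; other genes were named after their values were seen. Alternatives were DESeq2 1.42.0, limma-voom (limma 3.58.1), other scalings, filters and thresholds, and leaving out each library.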

Additional observations from a re-analysis of the deposited data

How the results depend on the processing

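Over the 12 alternatives, the log2 fold change of Abcc9 stayed between 1.32 and 1.67, and 7 members kept their direction; Kcnj8 turned to -0.00696 without mutant 5 (0.41 without mutant 7). Members called lower numbered 1, against 4 with library totals alone, 4 with DESeq2, 3 without a filter on low counts and 0 at a threshold of 0.01. Leaving out 1 library gave 0 to 2 called lower and 0 to 1 called higher. Over all genes 538 were called higher and 636 lower, against 960 and 1044 with DESeq2 and 157 and 234 at a threshold of 0.01, and leaving out 1 library gave 203 to 910 higher and 306 to 804 lower. Apart from the threshold, whose construction lowers the counts, the cause was not tested. The Kcnj2 share of the Kir2 pair, 1.30 percentage points higher in mutants, turned to -0.02 without control 2 and -3.76 without mutant 7 (range -3.76 to 6.36). The other 3 shares kept their direction, also with counts not divided by length, with coding length (the scaling first planned, which the listed length replaced once the data had been seen) and with GENCODE exonic length, chosen after seeing the data. No paired analysis was possible because the groups share no replicate number. The lowest member count was 653, where counting error is 3.91%.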
